A study of Mus musculus with 24 samples.

Results

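The change from embryonic stem cells (ESCs) to the day 7 cells labelled neural progenitor cells (NPCs) was followed in wild-type (WT) mouse cells. It rests on the 3 WT ESC libraries and the 3 WT NPC libraries, 6 of the 24 samples of the series, taken by their labels. The other samples are slow/slow cells, which carry the R749H form of RNA polymerase II on both alleles, and later stages of both genotypes. All 6 libraries came from 1 parental line, E14, with no mutation introduced. ESCs were grown in 2i medium with LIF, which holds the MEK inhibitor PD0325901 at 1 uM, the GSK3 inhibitor CHIR99021 at 3 uM and leukaemia inhibitory factor at 100 U/ml. For differentiation the cells were moved to N2B27, a serum-free medium without these factors, plated on gelatin at 10000 cells per cm2, and taken on day 7 with no sorting step. The question put to these samples is which programmes were lost and gained by day 7 and which exons changed with them. Stage and medium changed together, so that they cannot be told apart.

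Naive pluripotency is the state of the preimplantation epiblast. It is held in culture by LIF, which acts through STAT3, by blocking MEK, and by blocking GSK3, which stabilises beta-catenin and lifts repression by Tcf7l1. Once these are withdrawn, cells are known to shed naive factors such as Esrrb, Klf4 and Tfcp2l1, to pass through a formative state marked by Fgf5, Otx2 and Pou3f1 with new DNA methylation, and then to choose a germ layer. In serum-free monolayer culture, without BMP or serum, the usual choice is neuroectoderm marked by Sox1, Pax6 and Nes.

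The ESC libraries held 37275259 to 70212898 counts and the day 7 libraries 46023676 to 64208791. Pearson's r was taken of log2 CPM, the counts scaled to library size, over the 11839 genes left after low levels were dropped. It was at least 0.9949 between ESC replicates and at least 0.9975 between day 7 replicates, and at most 0.8588 between the groups. No pair held identical values, and every replicate pair differed by more than sampling noise, with a chi-square of 3.895 to 40.689 per degree of freedom. Levels below are CPM scaled by edgeR's TMM factors, log2 changes are day 7 minus ESC with their standard error (SE), and the FDR is that of edgeR's quasi-likelihood test with Benjamini-Hochberg adjustment. In bulk RNA, fewer cells of a type and less RNA per cell cannot be told apart.

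Of 16627 genes tested, 10913 (65.6%) passed an FDR of 0.05. There were 5658 (34.0%) that rose and 5255 (31.6%) that fell. A change of at least 2-fold upward was seen for 3492 genes (21.0%) and downward for 1646 (9.90%). The median change over all genes was 0.03. In 12829 of the genes tested the day 7 and ESC libraries did not overlap, so that separate groups were common. With so many genes past the threshold, the counts for each gene list are to be read against these shares. The lists and landmark genes were chosen with earlier results of these data known, so such a comparison is a description and no test.

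The markers of the label were weak at day 7. Pax6 (GRCm38 chr2:105668900-105697364, plus strand), a transcription factor of neural and eye progenitors, stood at 0.228, 0.172 and 0.162 CPM in ESCs and at 4.18, 4.07 and 4.63 CPM at day 7. It rose by 4.48 ± 0.35 on the log2 scale (SE, n = 3 and 3, edgeR FDR 1.17e-09), with no overlap between the groups, to a level that stayed under 5 CPM. Nes, the intermediate filament nestin, was at 19.3, 18.8 and 18 CPM in ESCs and 34.1, 32.9 and 32.3 CPM at day 7, a rise of 0.82 ± 0.13 (edgeR FDR 1.85e-05).

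Fabp7, a fatty acid binding protein of radial glia, was at 0.137, 0.143 and 0.341 CPM in ESCs and 0.395, 0.0755 and 0.255 CPM at day 7, overlapping values with no call (edgeR FDR 0.945). The same gene reached 676 ± 67.7 CPM (SD, n = 3) in the WT neurons of this series. Hes5, a Notch effector of neural progenitors, rose from 0.105 ± 0.0121 to only 0.361 ± 0.0845 CPM (edgeR FDR 0.00135). More than 20% of its exonic length is shared with another annotated gene, so its counts are uncertain. Cdh2, the N-cadherin of neuroepithelium, was at 13.9 ± 0.532 CPM in ESCs and 14.3 ± 1.45 CPM at day 7, and was not called (edgeR FDR 0.927). Sox1 was looked for, but the authors' gene counts hold no entry for it.

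The ESC markers, in contrast, were still among the well-expressed genes at day 7. Pou5f1 remained at 659.7, 619.8 and 637 CPM, Esrrb at 474, 506 and 454 CPM, and Zfp42 at 331, 309 and 309 CPM. The full list of neural progenitor markers, described further on, had more members that rose than fell, with levels mostly low. The label was thus borne out only in part by the markers measured here, which give no share of cells. The samples are called day 7 cells from here on, and no other cell type name is given to them.

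**Figure D1:**
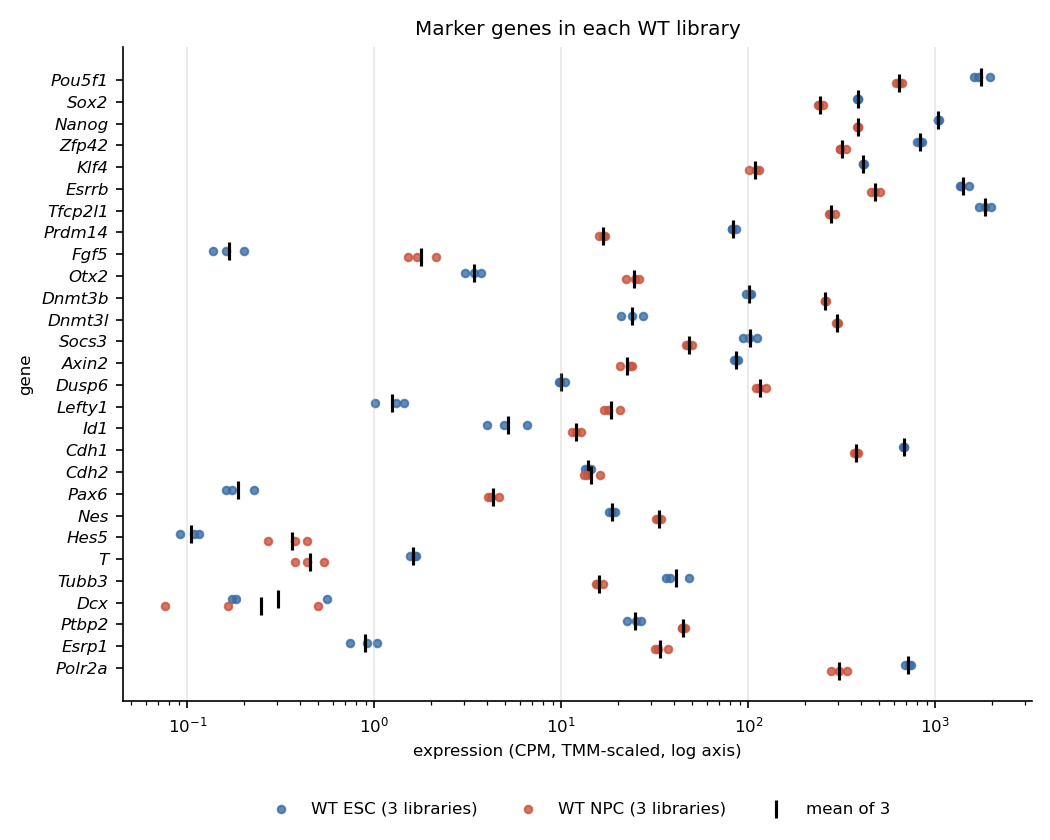
Levels of 28 genes chosen as landmarks of pluripotency, signalling and neural fate, in CPM on a log axis, with 1 point for each of the 3 WT ESC and 3 WT NPC libraries. Pluripotency genes such as Tfcp2l1, 1844 to 278 CPM on average, moved down but not to the floor, while Pax6 and Fgf5 rose from low levels.

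The naive factors fell as a group. Of 22 measured members, 18 fell and 0 rose at an edgeR FDR of 0.05, against the 31.6% and 34.0% of all genes, and 15 fell at least 2-fold (9.90% of all genes). A fit to the 6 samples alone put 1 member, not 0, among the risers. The list's median change was -1.53, against 0.03 for all genes. By the authors' mean RPKM, a level per length of transcript, the list's median went from 93.0 in ESCs to 35.3 at day 7.

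Tfcp2l1 (GRCm38 chr1:118627945-118685168, plus strand), a transcription factor downstream of LIF and GSK3 inhibition, stood at 1977, 1834 and 1722 CPM in ESCs and 269, 291 and 274 CPM at day 7. This is a fall of 2.73 ± 0.25 on the log2 scale, or 6.64-fold, with an edgeR FDR of 1.19e-08. Spic, an Ets-family factor, showed the steepest fall in the list, from 36.3, 36.7 and 35 CPM to 1.08, 0.921 and 1.02 CPM, a drop by 5.16 ± 0.43. Tdh, the threonine dehydrogenase on which mouse ESCs depend, was at 1150.2, 1184 and 1329.7 CPM in ESCs and 182, 167 and 176 CPM at day 7. Nr5a2, a nuclear receptor that can activate Pou5f1, fell 6.42-fold from 82.9 ± 6.29 to 12.9 ± 0.786 CPM, and Klf2, a Kruppel-like factor, fell 5.26-fold from 464 ± 61.1 to 88.2 ± 5.64 CPM.

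The remaining landmarks of the naive state fell less steeply. Prdm14, a repressor of FGF signalling and DNA methylation, was at 81.6, 81.3 and 86.1 CPM in ESCs and 15.9, 17.1 and 16.8 CPM at day 7. Klf4 went from 411, 409.6 and 416 CPM to 110.1, 114 and 101 CPM, a fall of 1.93 ± 0.29. Esrrb, an orphan nuclear receptor, fell from 1378, 1352 and 1506 CPM by 1.56 ± 0.13, and Zfp42, the classic ESC marker Rex1, fell from 831, 853 and 795 CPM by 1.38 ± 0.12. In each of these genes all day 7 libraries lay below all ESC libraries. The 4 members that were not called were Dppa3 (4.49 to 3.92 CPM), Dppa5a (204 to 177 CPM), Mkrn1 (546 to 723 CPM) and Gbx2 (37.1 to 30.6 CPM, with exons shared with another gene).

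Core pluripotency genes, shared between the naive and later epiblast, split. Of 16 measured, 8 fell and 5 rose, against 31.6% and 34.0% of all genes. Pou5f1 (GRCm38 chr17:35506018-35510772, plus strand), the central factor Oct4, was at 1617, 1692 and 1972 CPM in ESCs and fell by 1.46 ± 0.23 (edgeR FDR 1.07e-05). Nanog went from 1037, 1034 and 1045 CPM to 387, 380.4 and 386 CPM, a fall of 1.44 ± 0.14, and Sox2 from 385 ± 4.23 to 241 ± 8.06 CPM, a smaller fall of 0.68 ± 0.09. Foxd3 fell by 1.80 on the log2 scale (34.8 to 10.0 CPM).

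The risers in the core list were led by Utf1 (GRCm38 chr7:139943789-139945112, plus strand), a chromatin-bound factor of the epiblast, and by Lin28a, which blocks let-7 maturation. Utf1 was at 12.7, 16.1 and 16.6 CPM in ESCs and 340.2, 383 and 352 CPM at day 7, a rise of 4.57 ± 0.19 with an edgeR FDR of 1.38e-13. Lin28a was at 31.8, 35.7 and 36.8 CPM and then at 339.6, 334 and 327 CPM. Neither group overlapped the other for these genes. Dppa4 (39.3 to 59.1 CPM) and Zfp281 (85.7 to 101 CPM) rose by less than 2-fold.

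Genes of the formative and primed epiblast rose. Of 18 measured, 15 rose and 0 fell, and 13 rose at least 2-fold, against 21.0% of all genes. Their median change was 1.74, and the median of the authors' mean RPKM went from 2.22 to 12. Pou3f1, a POU factor of the epiblast and early neuroectoderm, was at 0.987, 0.832 and 1.28 CPM in ESCs and at 37.5, 35.6 and 35.4 CPM at day 7. Cldn6, an epiblast claudin, was at 4.13, 3.64 and 4.42 CPM and then at 137, 150.5 and 159 CPM. Both rose more than 30-fold with separate groups, at 34.5-fold and 36.4-fold.

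Otx2, which redirects Oct4 to formative enhancers, was at 3.42, 3.07 and 3.72 CPM in ESCs and at 22.2, 26.1 and 24.6 CPM at day 7, a rise of 2.83 ± 0.18 (edgeR FDR 5.31e-11). Fgf5, the best-known marker of the postimplantation epiblast, rose 10.9-fold but from 0.166 ± 0.0323 to only 1.78 ± 0.317 CPM. Wnt8a went from 0.402 to 3.88 CPM, and Sox4 from 6.83 to 86.8 CPM, though exons overlapping another gene make up 54.6% of Sox4. Sox3, Etv4 and Pim2 were not called.

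The enzymes of DNA methylation changed in both directions, with 5 of 15 higher and 6 lower, against 34.0% and 31.6% of all genes. The de novo machinery rose. Dnmt3l (GRCm38 chr10:78041947-78063622, plus strand), the cofactor that stimulates de novo methylation, was at 20.7, 23.9 and 27.2 CPM in ESCs and 302, 294 and 298 CPM at day 7. It rose 12.4-fold, a log2 change of 3.64 ± 0.36 (edgeR FDR 2.61e-08). Dnmt3a, a de novo methyltransferase, rose 4.22-fold from 41.6 ± 1.61 to 175 ± 5.18 CPM, and Dnmt3b, the other one, rose 2.56-fold from 97.3, 102 and 104 CPM to 256, 259.7 and 258 CPM.

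The maintenance machinery fell. Uhrf1, which brings Dnmt1 to replicated DNA, went from 1508, 1516 and 1715 CPM to 460.2, 464 and 431 CPM, a fall of 1.81 ± 0.22, and Dnmt1 from 495 to 297 CPM. Of the oxidising Tet enzymes, Tet2 fell by 2.06 (199 to 47.8 CPM), Tet3 rose by 1.64 (13 to 40.4 CPM), and Tet1 had no call (356 ± 50 and 289 ± 14.3 CPM).

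Among Polycomb genes, which keep developmental promoters silent, 10 of 19 fell and 4 rose, against 31.6% and 34.0% of all genes. Phf19, a PRC2 partner that reads histone H3 methylation, rose by 2.63 (2.80 to 17.4 CPM), and Rbbp7, Jarid2 and Ezh1 rose by 1.09, 0.68 and 0.63. Cbx8, Bmi1 and Pcgf2 fell by 1.16, 1.05 and 0.95. The PRC2 core genes Suz12, Eed and Ezh2 fell by 0.84, 0.78 and 0.62, none of them by 2-fold.

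Genes of the pathways on which the ESC medium acts were read next. For LIF-STAT3, 4 of 14 genes fell and 7 rose, against 31.6% and 34.0% of all genes. Bcl3, a STAT3 target, fell by 2.46 (87.7 to 15.9 CPM), Stat3 itself by 1.13 (197 to 90.1 CPM) and Socs3, the feedback inhibitor of the pathway, by 1.09 ± 0.27, from 93.6, 101 and 111 CPM to 46.7, 49.9 and 47.4 CPM. Fos, Cish and Junb rose by 2.21, 1.42 and 1.25.

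For Wnt, 9 of 19 targets and receptors fell and 4 rose, against 31.6% and 34.0% of all genes. Sp5 (GRCm38 chr2:70474923-70477729, plus strand), a direct beta-catenin target, was at 38.9, 43.4 and 50.9 CPM in ESCs and 1.23, 1.04 and 1.02 CPM at day 7, a fall of 5.34 ± 0.46 (edgeR FDR 3.82e-09). Cdx1, the caudal homeobox gene that Wnt induces, was at 190.5, 186 and 232 CPM and then at 6.01, 5.54 and 5.49 CPM. Axin2, the universal Wnt feedback gene, fell 3.8-fold from 85.7 ± 2.41 to 22.5 ± 1.61 CPM. Apcdd1 fell by 2.10 and T, the mesoderm factor Brachyury, by 1.85 (1.62 to 0.451 CPM). The 4 risers were the inhibitors Nkd2 (2.49), Dkk1 (1.76) and Nkd1 (1.34) and the receptor Fzd7 (1.41, in log2 units).

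For the MAPK pathway, 11 of 19 feedback and immediate genes rose and 3 fell, and 10 rose at least 2-fold. Dusp6 (GRCm38 chr10:99263231-99267489, plus strand), the ERK phosphatase whose level tracks ERK activity, was at 9.71, 10.5 and 9.77 CPM in ESCs and 124, 115 and 109.6 CPM at day 7, a rise of 3.54 ± 0.18 (edgeR FDR 2e-12). Dusp4, another ERK phosphatase, was at 1.78, 1.81 and 2.26 CPM and then at 72, 77.4 and 71.5 CPM. Spry4, an inhibitor of receptor tyrosine kinase signalling, rose 32.7-fold from 1.25 to 40.6 CPM and Egr1, an immediate early gene, 20.1-fold from 1.38 to 27.1 CPM. Etv5 (519.5 to 264 CPM), Etv1 and Ccnd1 went the other way.

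For Nodal, 5 of 15 genes rose and 6 fell, against 34.0% and 31.6% of all genes. Lefty1, the feedback inhibitor of Nodal, rose from 1, 1.43 and 1.31 CPM to 17.8, 16.9 and 20.6 CPM. Gdf3, Smad7 and Tdgf1 fell by 1.84, 1.82 and 1.31, and Nodal itself by 0.98 (151 to 76.7 CPM). For BMP, 12 of 20 rose and 4 fell. Bmp2 (0.607 to 5.71 CPM), Id2 (1.6 to 12.4 CPM) and the antagonist Nog (0.451 to 3.52 CPM) rose most, and Id1, an inhibitor of proneural factors and a direct BMP target, rose from 4, 4.93 and 6.54 CPM to 11.4, 11.9 and 12.8 CPM (1.22 ± 0.19, edgeR FDR 8.77e-06). Smad9, Fst and Id4 fell.

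Notch genes rose in 12 of 20 cases and fell in 2, or in 1 without WT NPC replicate 3. Among receptors, Notch2 rose by 1.43 (39.6 to 107 CPM) and Notch3 by 1.12 (79.3 to 172 CPM), and Notch1 had no call (77.0 to 82.8 CPM). Among ligands, Jag2 rose by 1.84 (17.2 to 61.7 CPM) and Dll4 from 0.159 to 0.535 CPM. Rbpj, the DNA-binding partner, rose by 1.30 (178 to 439 CPM). The effector Hes1 fell by 1.08 (76.6 to 36.2 CPM). Dll1 rose by 3.84, though its exons overlap another gene.

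The neural lists rose in many members but stayed low in level. Of 19 measured neural progenitor markers, 11 rose and 2 fell, with 9 at least 2-fold higher against 21.0% of all genes. The list's summed level was 610.2 to 630.2 CPM in ESCs and 689.4 to 707.7 CPM at day 7. Besides Pax6, the steepest risers were Sox9 (0.202 to 2.41 CPM), Sox11 (0.520 to 5.89 CPM), Prom1 (4.35 to 42.0 CPM) and Zic1 (0.423 to 2.88 CPM). The fallers were Sox21 (16.2 to 4.79 CPM) and Vim (249 to 175 CPM), and 4 fell in a fit to the 6 samples alone.

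Proneural and neurogenic factors rose in 13 of 25 cases and fell in 3, yet 17 of the 25 had a mean under 1 CPM at day 7. Neurog3 rose from 0.0275 to 1.39 CPM, Insm1 from 0.0907 to 1.46 CPM and Neurod1 from 0.423 to 2.57 CPM. Nhlh1, Pou4f1 and Eomes fell. The number of these genes that rose was thus high, and the RNA they made up was 24.33 to 24.47 CPM in ESCs and 28.96 to 30.08 CPM at day 7 in all.

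Neuron markers rose in 11 of 22 cases and fell in 5, and their summed level went down, from 592.5 to 664.1 CPM in ESCs to 428.4 to 437.1 CPM at day 7. Crmp1 (2.27 to 28.2 CPM), L1cam (0.451 to 4.55 CPM) and Syt1 (0.170 to 1.57 CPM) rose. Tubb3, the neuronal beta-tubulin, went from 36.3, 38.2 and 48.3 CPM to 16.7, 15.4 and 15.4 CPM, a fall of 1.37 ± 0.32 with an edgeR FDR of 0.000976, and Stmn3 and Stmn2 fell by 2.51 and 1.42. Dcx, a microtubule protein of migrating neurons, was at 0.182, 0.172 and 0.557 CPM and then at 0.499, 0.0755 and 0.165 CPM, overlapping and not called (edgeR FDR 0.725). Of NCAM and its polysialyltransferases, 5 of 10 rose and 2 fell, and Ncam1, the carrier of polysialic acid, went from 15.7 to 11.9 CPM.

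Regional identity genes moved little in absolute terms. Forebrain factors rose in 4 of 15 cases and fell in 2, against 34.0% and 31.6% of all genes. Six3 and Rax were not called, and 10 of 15 were under 1 CPM at day 7. The number that rose was 2 in a fit to the 12 WT samples. Hesx1 fell by 3.57 (5.33 to 0.442 CPM). Of 19 midbrain and hindbrain factors, 10 rose and 1 fell, or 3 fell in a fit to the 6 samples, with Meis1 (0.649 to 6.29 CPM) and Irx3 (0.940 to 6.05 CPM) among the larger rises and En2 lower. Of 18 dorsoventral factors, 12 rose and 1 fell, or 2 without WT NPC replicate 1 or with DESeq2. Foxa2 (0.258 to 8.68 CPM), which marks floor plate and also endoderm, and Pax3 (0.542 to 3.15 CPM) rose most.

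Retinoic acid genes rose in 14 of 19 cases and fell in 2. Cyp26a1, which degrades retinoic acid, went from 0.465 to 11.4 CPM, the binding protein Crabp2 from 1.03 to 21.3 CPM, while the synthesising enzymes Aldh1a3 and Aldh1a2 fell by 2.92 and 2.40. Of 27 Hox genes measured, 8 rose and 7 fell, against 34.0% and 31.6% of all genes. The risers included Hoxb1 (0.0879 to 2.77 CPM), Hoxb5 and Hoxb6 of the B cluster, whose Hoxb9 fell. The fallers included Hoxc4, Hoxc5, Hoxc6 and Hoxc8 of the C cluster, with Hoxc4 at 11 CPM in ESCs and 3.48 CPM at day 7. No Hox gene measured here exceeded 30 CPM on average in either group.

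**Figure D2:**
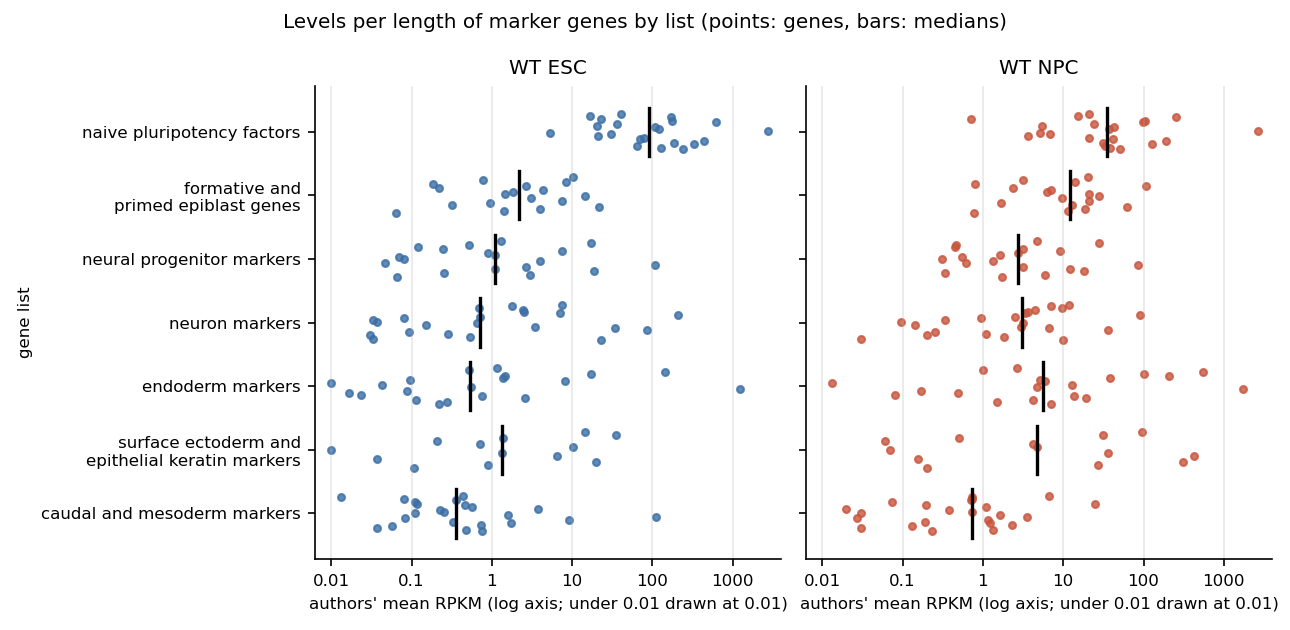
Levels per length of the marker genes of 7 cell type lists, as the authors' mean RPKM on a log axis, in WT ESCs and WT NPCs, with 1 point per gene and a bar at each list's median. The median of the endoderm list went from 0.532 to 5.56 RPKM, against 1.09 to 2.75 RPKM for neural progenitor markers, whose members mostly stayed low.

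The strongest gains were elsewhere. Of 20 measured endoderm markers, 14 rose and 1 fell, all 14 of them at least 2-fold (21.0% of all genes), with a median change of 2.56. Their summed level was 2006 to 2428 CPM in ESCs and 5537 to 6431 CPM at day 7. Most of that sum came from members other than those named below, already abundant in ESCs. Cubn (GRCm38 chr2:13276338-13491813, minus strand), the endocytic receptor cubilin of visceral endoderm, was at 0.38, 0.832 and 0.431 CPM and then at 127, 169 and 128 CPM, a rise of 8.11 ± 0.61 (edgeR FDR 6.14e-10). Dab2, an endocytic adaptor, was at 6.97, 7.57 and 6.31 CPM and then at 158, 187 and 162 CPM.

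Among the endoderm transcription factors, Sox7 went from 0.425, 0.344 and 0.252 CPM to 16.4, 17.6 and 14.3 CPM, Sox17 from 0.592, 0.717 and 0.898 CPM to 20.5, 22.2 and 19 CPM, and Gata6 from 2.52, 2.61 and 2.62 CPM to 42.6, 44.2 and 38.1 CPM. Gata4 rose 6.58-fold (9.24 to 60.9 CPM). Every one of these groups was separate. Several defining endoderm genes were near 0 all the same. Afp, Apoa1 and Cer1, genes of visceral and anterior visceral endoderm, stood at 0.158, 0.160 and 0.0200 CPM at day 7 and were not called. Ttr rose only to 0.544 CPM.

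Basement membrane genes rose with them. Col4a1 (GRCm38 chr8:11198423-11312826, minus strand), the main type IV collagen chain, was at 10.6, 10.6 and 10.2 CPM in ESCs and at 1256, 1468 and 1206 CPM at day 7, a rise of 6.97 ± 0.41 or 125-fold (edgeR FDR 1.4e-11). Its partner chain Col4a2, transcribed from the shared promoter region in the opposite direction, rose from 8.05, 8.43 and 8.05 CPM to 691, 819 and 669.9 CPM. Lamb1 and Lama1, laminin chains of early basement membrane, rose 19.5-fold and 5.25-fold, Lama1 from 184, 173 and 172 CPM to 868, 1051 and 859 CPM. Of 23 matrix and integrin genes, 14 rose and 2 fell, or 4 in fits to WT samples only, and their summed level went from 6256 to 6563 CPM in ESCs to 10330 to 12000 CPM. The fallers were Nid1 (680.0 to 169.5 CPM) and the fibronectin gene Fn1 (1963 to 802 CPM). Col1a2, Tnc and Col3a1 rose from under 0.5 CPM to 26.2, 8.78 and 3.45 CPM.

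Keratins of simple epithelia rose too. Of 13 surface ectoderm and keratin markers, 7 rose and 3 fell, with a summed level of 219.3 to 234.5 CPM in ESCs and 1449 to 1578 CPM at day 7. Krt18 (GRCm38 chr15:102028180-102032027, plus strand) was at 9.31, 9.38 and 10.1 CPM and then at 541, 517 and 591 CPM, a rise of 5.84 ± 0.64 (edgeR FDR 1.3e-07). Its dimer partner Krt8 went from 33.9, 37.4 and 39.8 CPM to 523, 501 and 522 CPM, and Krt7 and Krt19 rose 26.7-fold and 23.9-fold. The keratins of stratified epithelium, Krt5 and Krt14, stayed under 1 CPM and were not called, and Tfap2a, a regulator of surface ectoderm, fell (4.2 to 1.35 CPM).

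Of 22 cadherin and epithelial junction genes, 13 rose and 3 fell, or 1 fell without WT NPC replicate 1. Besides Cldn6, Cldn7 (1.48 to 27.6 CPM) and Cdh3 (3.51 to 29.3 CPM) rose, and Esrp1, the splicing regulator of epithelia, rose 37.6-fold. Cdh1, the E-cadherin of ESCs, was at 679.6, 671 and 677 CPM and then at 366, 388 and 375 CPM, a fall of 0.85 ± 0.31 (edgeR FDR 0.0207), a call lost without WT NPC replicate 1. The mesenchymal regulator Zeb2 rose from 0.367 to 4.40 CPM.

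Other lineages rose in part. Trophoblast markers rose in 6 of 11 cases and fell in 1, or 3 in a fit to the 6 samples. Hand1 (GRCm38 chr11:57828705-57832818, minus strand), a factor of trophoblast, extraembryonic mesoderm and heart, was at 0.228, 0.143 and 0.287 CPM and then at 44.4, 41.4 and 39.7 CPM. Esx1, a placental homeobox gene, rose from 4.46 to 61.8 CPM, while Elf5, Cdx2 and Gata2 were not called. Caudal and mesoderm markers went both ways, with 10 of 23 higher and 8 lower, against 34.0% and 31.6% of all genes. Pdgfra, a receptor of primitive endoderm and mesoderm, rose from 3.04, 3.13 and 2.95 CPM to 44, 44.2 and 36.4 CPM, Meox1 rose from 0.0343 to 1.51 CPM, and Gsc, an organiser gene, fell from 11.3 to 1.27 CPM.

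Of 12 neural crest markers 7 rose and 3 fell, led upward by Ets1 (1.51 to 30.6 CPM) and downward by Ngfr (58.1 to 12.8 CPM). Of 11 measured glial markers 9 rose and 1 fell, most of them from under 1 CPM, and the list's summed level was 62.83 to 72.41 CPM in ESCs and 89.14 to 99.85 CPM at day 7. Genes of the Zscan4 and Dux programme are seen in rare ESCs that resemble the early cleavage embryo. They rose in 2 of 8 cases, against 34.0% of all genes. The number was 1 when any library was left out and 4 in fits to the 6 samples. Their summed level was 12.42 to 14.37 CPM in ESCs and 21.11 to 22.78 CPM at day 7. The part that a mixture of cell types played in any of these sums was not tested.

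**Figure D3:**
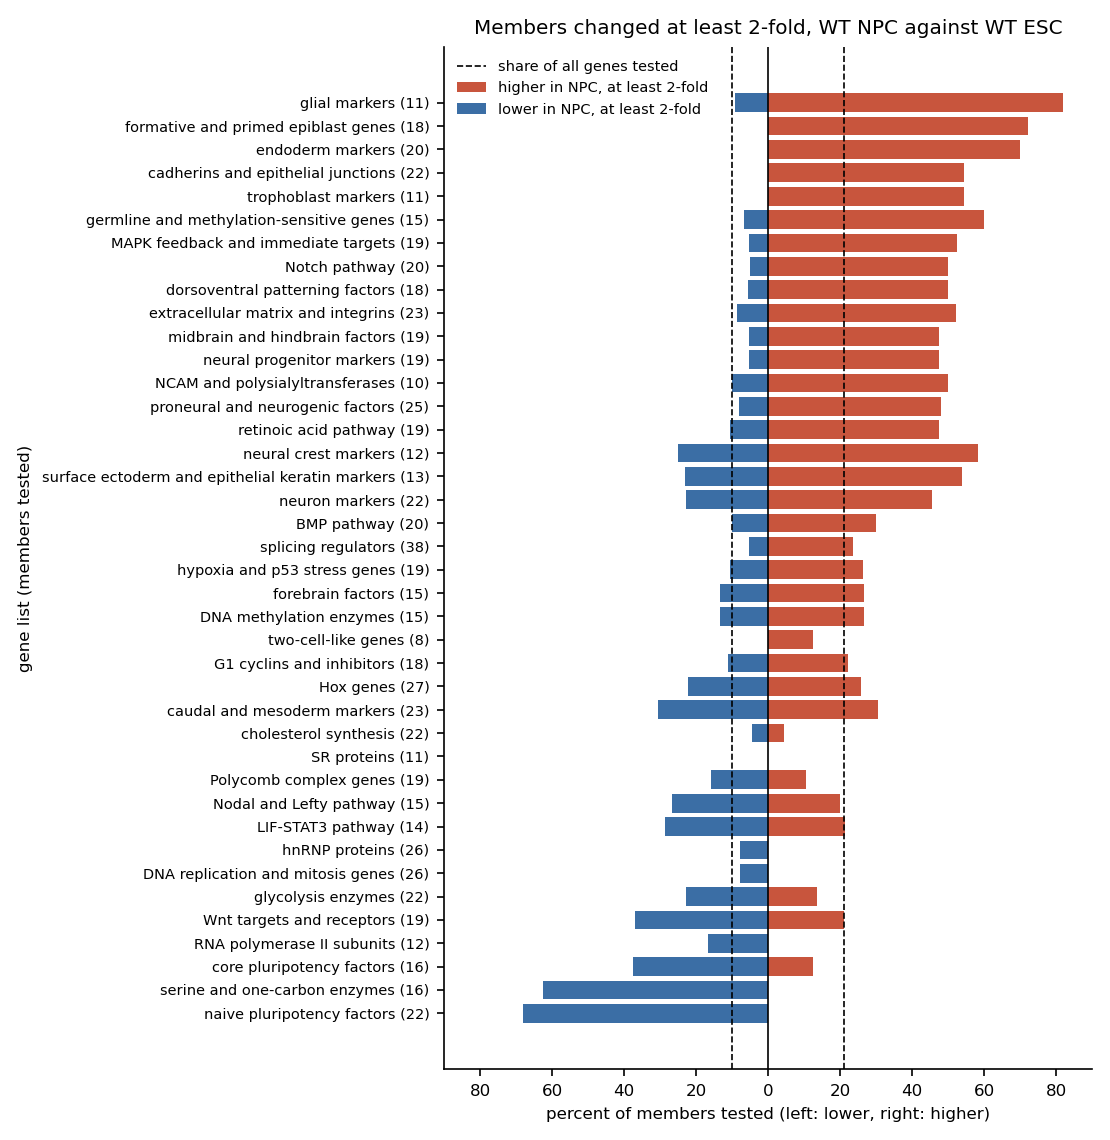
Share of each of 40 gene lists that was at least 2-fold higher (right) or lower (left) at day 7 and called, in percent of measured members. The dashed lines give the same shares over all genes, 21.0% and 9.90%. Formative, endoderm and glial lists reach farthest to the right, and naive pluripotency and serine enzymes farthest to the left.

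The 10 largest rises with at least 10 CPM were Car4, Acta2, Acta1, Cubn, Gbp2, Gbp1, Hand1, Clic5, Myl9 and Igf2. Car4, a membrane-bound carbonic anhydrase, was at 0.137, 0.23 and 0.18 CPM in ESCs and 178, 188 and 206 CPM at day 7, a rise of 10.08 ± 0.50 (edgeR FDR 1.24e-12). Acta2, smooth muscle actin, was at 0.547, 0.488 and 0.27 CPM and then at 172, 143 and 162 CPM, and Myl9, a smooth muscle myosin light chain, reached 18.4 CPM. Igf2, the imprinted growth factor of extraembryonic and embryonic tissue, was at 5.35, 6.34 and 5.68 CPM and then at 819.8, 789.8 and 724 CPM, with 64.5% of its exonic length also annotated to other genes. Acta2 and Acta1, and Gbp1 and Gbp2, are pairs of related genes. Whether the counting split reads within a pair was not tested, so the single values are uncertain.

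The 10 largest falls were Trpm1, Nkx1-2, Tlx2, Osm, Osta, Eya1, Sp5, Cdx1, Spic and Myh13. Trpm1, a cation channel best known from retina and pigment cells, was at 182, 179 and 200.3 CPM in ESCs and 0.645, 0.362 and 0.54 CPM at day 7, a fall of 8.52 ± 0.29 (edgeR FDR 8.25e-15). Nkx1-2 (GRCm38 chr7:132594878-132599637, minus strand), a homeobox gene of the caudal epiblast, went from 13, 13.6 and 12.4 CPM to 0.104, 0.0755 and 0.045 CPM. Tlx2, a homeobox gene, went from 20.1 to 0.225 CPM, Osm, a cytokine of the LIF family, from 16.5 to 0.298 CPM, and Eya1, a transcriptional cofactor of ear and kidney development, from 18.4 to 0.404 CPM. In each of these 20 genes the groups were separate, which the choice required and which held for 12829 of all genes tested.

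Genes of the germline, many of which are known to be held silent by promoter methylation, rose in 12 of 15 cases and fell in 3, with 9 at least 2-fold higher. Without WT ESC replicate 1, WT NPC replicate 2 or WT NPC replicate 3, or with upper-quartile scaling, the number that fell was 1. Ddx4, the germ cell helicase Vasa, was at 5.67, 5.45 and 3.97 CPM and then at 31.2, 30.7 and 29.4 CPM. Mael, a piRNA pathway gene, was at 10.2, 9.81 and 11 CPM and then at 55.6, 58 and 59 CPM. Dmrtb1 (1.37 to 18.3 CPM), Tdrd1 (0.497 to 6.40 CPM) and Rhox6 (1.40 to 13.8 CPM) rose most, and Dazl, an RNA-binding protein of germ cells, fell slightly from 19.4 ± 2 to 13.9 ± 1.06 CPM.

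A palindromic E-box of the letters CACGTG, which Max-Mga dimers of a germline-silencing PRC1 complex and other factors bind, was looked for on both strands in RefSeq promoter windows of GRCm38.p6, from 250 bases before to 50 bases after each gene start. It was found in 9 of the 13 tested germline genes with a window (69.23%), against 2187 of 27025 genes with a window (8.09%). The list was chosen with these genes' behaviour known, and a match is only a match of letters. The sites of 4 risers are shown with the motif in capitals, read on the gene's strand.
Ddx4, chr13:112652325-112652348, minus strand: gtccgcccgCACGTGcagccgttt
Mael, chr1:166238953-166238976, minus strand: caggcctacCACGTGacaatcccc
Taf7l, chrX:134476525-134476548, minus strand: ctcttatacCACGTGacagaactc
Tdrd1, chr19:56826189-56826212, plus strand: ggctgcgcgCACGTGggagtaaac
Hormad1, among the 3 fallers (13.8 to 8.06 CPM), holds the motif as well. By direction it was found in 8 of the 10 risers and 1 of the 3 fallers with a window, a difference that was not tested.

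Metabolic genes fell most evenly among serine, glycine and folate enzymes. Of 16 measured, 13 fell and 1 rose, with 10 at least 2-fold lower (9.90% of all genes), and the riser, Gldc, lost its call in 4 of the 6 fits that left out 1 library (WT ESC replicate 1 or 2, WT NPC replicate 2 or 3), while 2 rose in fits to the 6 samples. Shmt2, the mitochondrial serine hydroxymethyltransferase, went from 578, 589 and 705 CPM to 168, 179 and 167 CPM, a fall of 1.87 ± 0.19 (edgeR FDR 5.96e-08). Psat1, which makes phosphoserine, went from 711, 710.5 and 798 CPM to 272, 278 and 264 CPM, and Mat2a, which makes the methyl donor S-adenosylmethionine, fell by 1.37 (486 to 188 CPM).

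Of 22 glycolysis genes 10 fell and 5 rose, against 31.6% and 34.0% of all genes. Pfkp, Ldha and Hk2 fell by 1.76, 1.58 and 1.41. Pdk1, which shuts pyruvate out of mitochondria, and the muscle enolase Eno3 rose by 3.81 and 3.05 (15.2 to 212 CPM and 7.24 to 59.9 CPM). Gapdh, Pgam1 and Eno1 have near-identical copies elsewhere in the genome, so their counts are uncertain. Cholesterol synthesis was nearly still, with 8 of 22 higher and 4 lower, against 34.0% and 31.6% of all genes. Its median change was -0.0042, and the number lower was 7 in a fit to the 6 samples. Hypoxia and p53 genes rose in 9 of 19 cases and fell in 6, against 34.0% and 31.6% of all genes. Adm, Pmaip1 and Car9 were up by 3.03, 2.40 and 1.89 and Trib3, Ddit3 and Chac1 down by 1.33, 1.07 and 0.93.

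Replication and mitosis genes fell in 13 of 26 cases and rose in 2, mostly by less than 2-fold. The number that rose was 4 with median-of-ratios or upper-quartile scaling, DESeq2, the replicate block or the 12 WT samples, 6 in fits to the 6 samples, and 1 without WT ESC replicate 3. Mcm5 and Ccne1 fell by 1.13 and 1.14 and Pcna by 0.93, while Mki67 and Ccnb2 rose by 0.52 and 0.73, and mitotic genes such as Plk1, Top2a and Cdk1 had no call. Of the G1 regulators 6 of 18 fell and 5 rose, against 31.6% and 34.0% of all genes. Cdk2 fell by 1.00, and Ccnd2, Cdkn2b and Rb1 rose by 2.81, 1.66 and 1.62. Cdkn1c, an imprinted cell cycle inhibitor, rose from 6.2, 7.49 and 7.58 CPM to 153, 133 and 136 CPM, with 30.7% of its exonic length shared with another gene.

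RNA polymerase II is the object of the study, so its subunits were read in these WT cells as well. Of 12 subunit genes 10 fell and 0 rose, with a median change of -0.52. Polr2a, the gene of the largest subunit, which carries the mutation in the other genotype, was at 738, 687 and 725 CPM in WT ESCs and at 277, 335 and 306 CPM at day 7, a fall of 1.23 ± 0.17 (edgeR FDR 2.02e-06). Of the others, Polr2l fell by 0.97, Polr2d by 0.74 and Polr2g by 0.72. Polr2c and Polr2k were not called. The CPM scale gives shares of each library's counts and says nothing of total RNA per cell.

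The genes that control splicing fell in 2 families and moved both ways in the remaining one. Of 11 SR proteins, which bind exonic enhancers, 8 fell and 1 rose, with Srsf6, Srsf3 and Srsf1 down by 0.99, 0.84 and 0.63. The number that rose was 0 with median-of-ratios scaling, DESeq2, or without WT ESC replicate 2 or 3 or any 1 WT NPC replicate. Of 26 hnRNP genes, 20 fell and 1 rose. Hnrnpd went from 411, 412 and 409.8 CPM to 178, 164 and 169 CPM, a fall of 1.27 ± 0.18, and Hnrnpm, Hnrnpa0 and Hnrnpu fell by 1.01, 0.94 and 0.78. Hnrnph3 rose by 0.69. These falls were mostly under 2-fold. Of 38 other splicing regulators 15 rose and 12 fell, against 34.0% and 31.6% of all genes.

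Esrp1 (GRCm38 chr4:11331933-11386783, minus strand), the epithelial splicing regulator, was at 1.03, 0.918 and 0.737 CPM in ESCs and at 31.6, 33 and 37 CPM at day 7 (5.23 ± 0.42, edgeR FDR 1.61e-09), while its paralogue Esrp2 was not called (13 to 12.5 CPM). Mbnl2, a muscleblind protein, rose 3.2-fold from 35.4, 28 and 26.1 CPM to 104, 91.7 and 91.5 CPM, and Mbnl3 rose from 2.33 to 7.53 CPM. Ptbp2, the neural PTB paralogue, rose from 26.7, 25.2 and 22.4 CPM to 45.8, 43.9 and 44.4 CPM (0.85 ± 0.08), and Ptbp1 fell by 0.77, with 20.7% of its exonic length overlapping another gene. Srrm4, the activator of neuronal microexons, fell from 4.39 ± 0.217 to 1.80 ± 0.241 CPM, and Rbfox2 (257 to 232 CPM) and Nova1 (7.91 to 7.46 CPM) were not called.

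Splicing was read as percent spliced in (PSI), the share of transcripts that include an exon or keep an intron. An event was called when the mean PSI of the 3 libraries differed by over 10 points between groups and the posterior probability of the sign was over 0.95. Of 21142 exons measured in all 6 libraries, 377 (1.78%) were more included at day 7 and 127 (0.601%) less included. Of 278 microexons, which are at most 15 bases long, 15 (5.40%) changed, 13 of them toward inclusion. Of 75740 introns, 97 (0.128%) were more retained and 129 (0.170%) less, and 191 of 22996 alternative splice site events (0.831%) changed.

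Exons among those that changed most and that lie within coding sequence are shown in capitals, each between 15 lower-case bases of its neighbouring exons, so that the joined reading can be seen. Positions are those of the deposited mm9 events, and the letters come from GENCODE transcripts of GRCm38 in which gene, exon length and both flanking intron lengths matched. Gained exons are given before lost ones.
Ktn1, chr14:48345604-48345675: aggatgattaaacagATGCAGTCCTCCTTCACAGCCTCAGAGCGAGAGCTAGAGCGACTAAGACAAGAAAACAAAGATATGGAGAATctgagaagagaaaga
Tcf12, chr9:71716806-71716877: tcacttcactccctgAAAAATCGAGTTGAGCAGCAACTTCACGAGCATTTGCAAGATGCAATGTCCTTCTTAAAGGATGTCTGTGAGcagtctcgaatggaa
Dazl, chr17:50424321-50424371: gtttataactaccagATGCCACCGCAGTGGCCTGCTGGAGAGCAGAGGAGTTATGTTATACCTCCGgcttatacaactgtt
AI848100, chr1:163775691-163775711: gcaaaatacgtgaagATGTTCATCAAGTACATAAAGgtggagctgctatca
Igsf3, chr3:101236838-101236897: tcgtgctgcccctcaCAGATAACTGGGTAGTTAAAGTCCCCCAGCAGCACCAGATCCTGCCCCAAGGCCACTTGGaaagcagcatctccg
Ssbp3, chr4:106699822-106699902: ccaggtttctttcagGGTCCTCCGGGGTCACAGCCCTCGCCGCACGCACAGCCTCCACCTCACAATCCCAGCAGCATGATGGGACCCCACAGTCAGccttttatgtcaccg
Gatad2a, chr8:72436063-72436137: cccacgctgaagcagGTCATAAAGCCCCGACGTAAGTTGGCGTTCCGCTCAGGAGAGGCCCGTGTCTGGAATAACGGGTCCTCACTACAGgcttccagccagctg
All 7 of these exons have lengths divisible by 3, so that skipping them keeps the reading frame.

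Kinectin (Ktn1), a coiled-coil receptor for kinesin on the endoplasmic reticulum, gained its 72-base exon the most. PSI was 27.4%, 30.5% and 27.4% in ESCs and 70.6%, 70.9% and 75.3% at day 7, a difference of 43.9 points with at least 413 reads in every library. Tcf12, the E-protein HEB, which pairs with proneural and other bHLH factors, gained a 72-base exon, from 32.2%, 29.9% and 34.5% to 70%, 69.7% and 82.5%. Dazl gained a 51-base exon, from 36.1%, 31.7% and 30.7% to 76.8%, 76.9% and 70.5%. In all of these exons the groups were separate, as they were in all 377 exons called more included.

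AI848100, the gene also called Suco, gained a 21-base exon, from 42.6%, 42.5% and 42.6% to 85.8%, 80.8% and 80.9%. The other large gains were Nek1, a cilia and DNA repair kinase (34.2% to 74.9%), Kif23, a kinesin of cytokinesis (36.0% to 75.9%), Dscc1, a cohesion clamp loader subunit (15.8% to 55.1%), Tia1, an RNA-binding protein (26.0% to 64.8%), Cobl, an actin nucleator (42.0% to 80.4%), and Snap91, a clathrin adaptor (47.0% to 85.4%). The Tia1 exon was not wholly within the coding region. Read support in the shallowest library ranged from 31 for Snap91 to 413 for Ktn1.

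Among the losses, Igsf3, an immunoglobulin superfamily membrane protein, went from 81%, 96.3% and 83.2% to 50.6%, 40.9% and 35.6%, a difference of -44.5 points. Ssbp3, a partner of Ldb1 and LIM-homeodomain factors, lost an 81-base exon, from 65.4%, 65.1% and 68.8% to 33.2%, 31.2% and 30.6%, while its gene level rose by 1.81 ± 0.09 (52.1 to 182 CPM). Gatad2a, a subunit of the NuRD complex, lost a 75-base exon, from 86.5%, 89.8% and 86.1% to 53.5%, 55.1% and 52.5%, with at least 728 reads per library and no call for gene level (234 and 235 CPM, edgeR FDR 0.951). None of these groups overlapped, which held for 126 of the 127 exons called less included.

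The other large losses were in Odf2l (86.9% to 49.3%), Uspl1 (88.8% to 51.8%), Csad (95.7% to 65.7%), 2410002F23Rik (67.7% to 38.4%), Eml4 (81.6% to 53.4%) and Fam38a, the mechanosensitive channel Piezo1 (88.5% to 60.8%). The exons of Uspl1, Csad and 2410002F23Rik were not wholly within the coding region. The Fam38a exon is 62 bases long, so its skipping shifts the frame, and the gene's level rose by 1.17 ± 0.12.

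**Figure D4:**
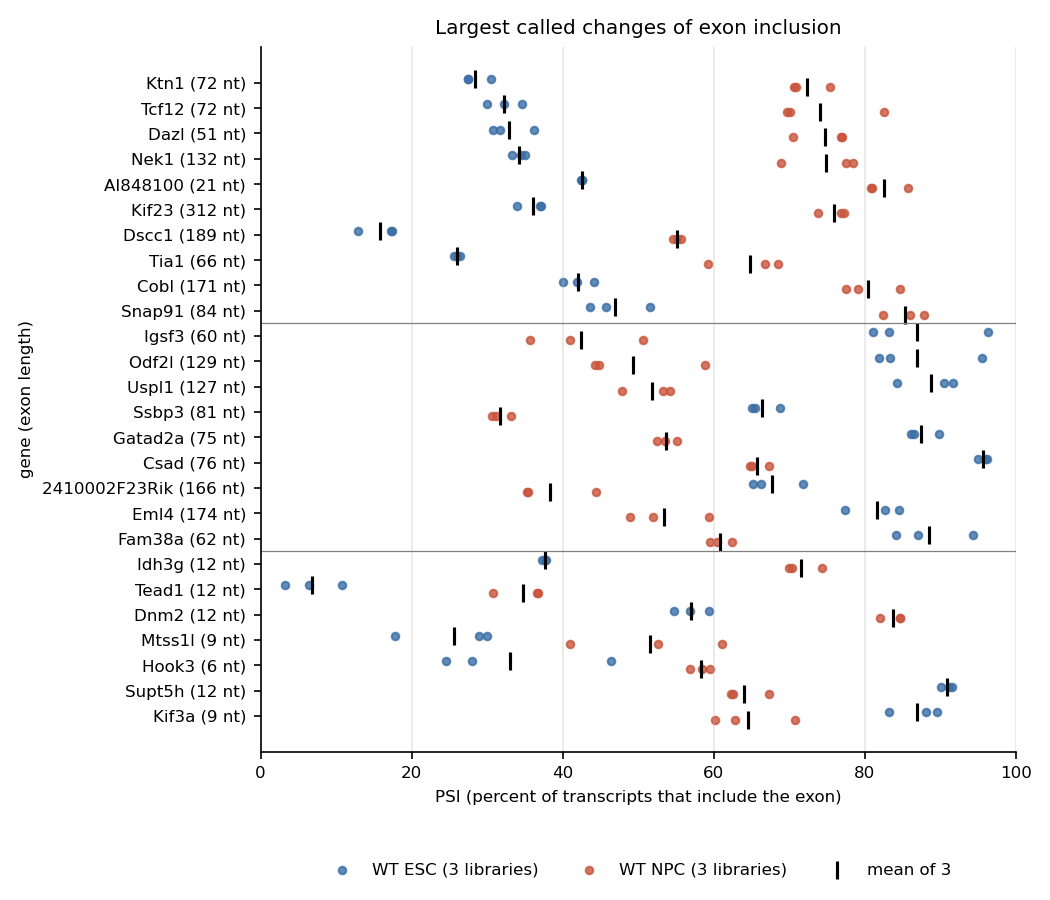
PSI in percent for 19 exons and 7 microexons among those with the largest changes, 1 point for each of the 3 WT ESC and 3 WT NPC libraries. Ktn1 moved from 28.4% to 72.3% on average and Igsf3 from 86.8% to 42.4%, and the spread between libraries was widest for Hook3 in ESCs (SD 11.7 points).

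Microexons are mostly known from neurons, where Srrm4 promotes them. The 5 shown here had a match in the annotation, and read support ran from 22 reads in the shallowest library for Kif3a to 696 for Idh3g.
Idh3g, chrX:71027637-71027648: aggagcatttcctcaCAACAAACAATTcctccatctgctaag
Tead1, chr7:119999567-119999578: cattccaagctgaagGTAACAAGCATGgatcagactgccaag
Dnm2, chr9:21295102-21295113: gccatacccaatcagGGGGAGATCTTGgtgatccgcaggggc
Supt5h, chr7:29115037-29115048: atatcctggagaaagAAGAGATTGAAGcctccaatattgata
Kif3a, chr11:53404219-53404227: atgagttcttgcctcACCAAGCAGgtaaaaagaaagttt
The Kif3a microexon is 9 bases long and the others are 12, so that each adds whole codons.

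Idh3g, a subunit of mitochondrial isocitrate dehydrogenase, gained its microexon, from 37.3%, 37.7% and 37.8% to 70.4%, 74.3% and 70%, with at least 696 reads in each library. Tead1, the DNA-binding partner of Yap, gained one from 6.3%, 3.2% and 10.8% to 36.6%, 30.7% and 36.8%. Dnm2, the dynamin of endocytosis, went from 54.7%, 56.8% and 59.4% to 82.0%, 84.7% and 84.6%. Supt5h, a subunit of the elongation factor DSIF that travels with RNA polymerase II, lost inclusion, from 90%, 91.6% and 91.1% to 62.2%, 62.5% and 67.3%. Kif3a, a kinesin of cilia, went from 83.2%, 89.5% and 88.1% to 70.8%, 60.1% and 62.8% with as few as 22 reads, a call lost at a posterior probability over 0.99. Mtss1l (25.6% to 51.6%) and Hook3 (33.0% to 58.3%) also gained a microexon, on as few as 29 and 25 reads. The Hook3 call was lost without WT ESC replicate 1, WT ESC replicate 2 or WT NPC replicate 2.

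Among retained introns, Npr1, a natriuretic peptide receptor, lost retention of a 243-base intron (chr3:90261000-90261242), from 59.9%, 50.3% and 64.3% to 9.8%, 10.4% and 8.8%, as its gene rose by 1.82 ± 0.09 (42.6 to 151 CPM). Spnb3, a spectrin chain, went from 66.7%, 76.9% and 68.4% to 10.7%, 27.5% and 10.2% for a 193-base intron (chr19:4744273-4744465), with a gene rise of 1.34 ± 0.18. Dmc1, the meiotic recombinase (72.7% to 30.5%), and Klc3, a kinesin light chain (79.5% to 38.1%), lost retention as well, and their genes rose by 1.76 and 1.72. Retention rose in Tex9 (13.2% to 50.4%), Smarcd3, a BAF complex subunit (8.3% to 38.9%), Cfp (5.1% to 31.5%) and Klc1 (44.2% to 70.5%). Smarcd3 and Cfp fell in level by 1.42 and 1.50. Tex9, at only 1.01 CPM in ESCs and 1.07 CPM at day 7, and Klc1 were not called. The Klc1 intron is 6061 bases long. Whether retention and gene level moved together over all called introns was not tested. The largest splice site shifts were in Pdlim5 (18.2% to 54.5%), Rpl27a (12.6% to 48.7%), Taf1a (21.9% to 57.5%) and Sec24a (31.5% to 67.0%).

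Exons changed within the listed splicing, chromatin and pluripotency genes too. Hnrnpd changed at both of its alternative exons in opposite directions. The 57-base exon (chr5:100405553-100405609) went from 58.4%, 59.4% and 58.0% to 36.7%, 38.7% and 36.0%, and the 147-base exon (chr5:100392750-100392896) from 59.5%, 59.2% and 58.3% to 77.2%, 75.7% and 78.1%, on at least 908 reads per library. Hnrnph3, the hnRNP that rose, gained a 139-base exon from 65.4% to 90.1%, and exons in Hnrpdl (29.0% to 49.3%), Hnrnpr (36.1% to 53.4%) and Hnrnpa2b1 (32.5% to 48.6%) gained inclusion.

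In Dnmt3b a 115-base exon (chr2:153476521-153476635) fell from 28.3%, 27.2% and 23.1% to 7.6%, 12.6% and 11.7%. Mtf2, a PRC2 partner, gained 2 exons (46.4% to 74.1% and 35.8% to 48.8%) found only in transcripts without an annotated coding region. Pecam1, an adhesion molecule of ESCs and endothelium, changed at 3 exons, of which 1 fell (64.3% to 41.1%) and the others rose (32% to 48.9% and 27.6% to 40.5%). Smaller shifts were seen in Tbx3 (35.5% to 48.1%), Tcl1 (78.4% to 92.6%), Msi1 (79.7% to 93.4%) and Mbnl2 (93.0% to 81.1%). The Rif1 exon (4.3% to 14.4%) had a posterior probability of 0.9523, and its call was lost without WT ESC replicate 2 or 3 or WT NPC replicate 1 or 2.

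What the changed features had in common was read as a description. Of the exons more included, 57.29% had lengths divisible by 3, and of those less included 55.12%, against 54.11% of tested exons with a mean PSI of 10 to 90 and 40.25% of all tested exons. Changed exons were thus like alternative exons as a whole in this respect, a set from which they had not been removed. Of the 504 changed exons, 355 matched an annotated exon within a coding region, 84 lay not wholly within one, 15 were only in transcripts without a coding region and 50 had no match. Genes with a changed exon were themselves changed in level at a share of 65.7% (128 higher and 174 lower of 460), against 66.9% of all genes with a tested exon.

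Genes that rose had a median span of 28230 bases in GRCm38 and genes that fell 19581 bases, against 23164 bases over all tested genes with coordinates. Genes at least 2-fold higher had a median level of 0.762 CPM in ESCs and 4.10 CPM at day 7, so that most of these rises started from little RNA. Genes of chromosome X had a median change of 0.27, and 43.1% of its 587 genes rose, while the medians of the autosomes lay between -0.06 and 0.16. E14 cells carry a single X chromosome, and the reason for this difference was not tested.

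The same transition was sampled in slow/slow cells, and the difference between the genotypes passed an edgeR FDR of 0.05 for 4091 genes (24.6%) and for 16 of the 28 landmark genes plotted. Slow/slow cells had been plated at 30000 cells per cm2, so that genotype and plating density cannot be told apart. Cdh2, not called in WT cells, differed by 3.93 on the log2 scale (edgeR FDR 1.91e-05), with 7.44 ± 0.635 CPM in slow/slow ESCs and 117 ± 19 CPM in slow/slow day 7 cells. Tfcp2l1 fell further in slow/slow cells, to 39.2 ± 2.99 CPM, a difference of -2.65. The changes of Pou5f1, Sox2 and Pax6 did not differ past the threshold, although Pax6 reached 40.9 ± 3.96 CPM in slow/slow day 7 cells from 0.975 ± 0.26 CPM in their ESCs.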

How the data were processed

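Poly(A)+ RNA of 6 WT samples, 3 ESC and 3 NPC, was compared, grouped by the labels, and the other 18 entered only the shared fit. Per the study's methods, the replicates came from independent differentiation experiments and reads were mapped to mm9 with vast-tools. Per the labels, the library kit was stranded TruSeq. The submitters' processing notes name bcl2fastq 2.17.1.14 and edgeR. The authors deposited raw counts per gene and sample, RPKM values that are group means, and, for each splicing event and sample, PSI as a percent with quality scores and corrected reads. Whether counting used strand is not stated, so genes sharing at least 20% of their exonic length are called uncertain. The deposited log2 fold changes and FDR values, and a table of PSI per group, hold the authors' own comparisons of slow/slow with WT cells and were not used. No per-sample column was left out.

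The 22667 listed genes included 21553 with counts, and filterByExpr kept 16627. Counts were tested with edgeR 4.0.16 in R 4.3.3 (TMM, glmQLFit, glmQLFTest) in 1 model of 8 groups over 24 samples, with 16 residual degrees of freedom, a common biological coefficient of variation of 0.164 and an FDR threshold of 0.05. SE was derived from the F statistic. Each group has 3 samples, which limits precision, and totals ranged from 37275259 to 70212898 counts over the 6 libraries. For PSI, beta posteriors of the reads of each replicate were pooled and refitted as in the vast-tools diff module. Coverage and junction balance filters followed the study, and all 6 samples had to pass. An intron passed with 15 reads or more and a p-value for junction balance no lower than 0.05. The balance score was blank for microexons and was not applied to them. Microexons are events of at most 15 bases.

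Named genes were 30 landmark genes, the members of 40 lists with the largest changes, the 10 largest rises and falls with at least 10 CPM and separate groups, and the largest called events with at least 20 reads. Some items that this rule names are not reported here. The landmark genes and lists were chosen with earlier results of these data known. On simulated counts edgeR recovered 47 of 50 genes changed 2-fold and 23 of 50 changed 1.5-fold, with 9 false calls among 16226 genes. The splicing scheme recovered 191 of 200 exons changed by 30 points, with 45 false calls in 3000 exons. Both totals include the changed genes or exons. Only 50 genes were changed at each fold, whereas 65.6% of genes were called in the data. The median ESC PSI of tested exons was 99.49. Whether these recoveries and false calls hold at such values was not tested. Gene coordinates come from GENCODE on GRCm38 and event coordinates from the deposited mm9 table, and the builds were not converted. Alternatives were other scalings, no filter, other sample sets, DESeq2 1.42.0, limma 3.58.1 for events, stricter event thresholds, a replicate block and leaving out each library.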

Additional observations from a re-analysis of the deposited data

Results flagged for a closer look

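For 16 landmark genes the change from ESC to day 7 differed between slow/slow and WT cells in a test of the difference itself, edgeR's interaction of genotype and stage (FDR under 0.05, against 24.6% of all genes). The landmark genes were chosen with earlier results of these data known, so their number is no test against that share. The differences are given as log2 change in slow/slow cells minus that in WT cells. Genotype and plating density (30000 against 10000 cells per cm2) cannot be told apart in these values, and both changes rest on 3 libraries per group.

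Among pluripotency genes the difference was -1.41 for Nanog, -1.22 for Zfp42, -1.61 for Klf4, -1.93 for Esrrb, -2.65 for Tfcp2l1 and -2.07 for Prdm14, so that each fell further in slow/slow cells. Among formative genes it was 3.28 for Fgf5, 1.24 for Otx2 and 2.42 for Dnmt3b. Among signalling genes it was -1.16 for Socs3, 1.07 for Dusp6 and -1.02 for Id1. Among neural and mesodermal genes it was 3.93 for Cdh2, 0.79 for Nes, 0.69 for Ptbp2 and -0.97 for T. The Socs3 difference lost its call without WT ESC replicate 1 or 2 or any 1 WT NPC replicate, and the T difference without WT NPC replicate 1.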

How the results depend on the processing

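Counts of changed genes stayed within 1.5 times their values under every scaling, filter, sample set and tool, from 10138 genes without WT NPC replicate 2 to 12226 in a fit to the 6 samples. Upper-quartile scaling moved the median of all genes by 0.08 and the share of calls that were rises from 51.8% to 57.0%. Leaving out 1 library gave 5134 to 5246 rises, 4940 to 5090 falls, 384 to 451 exons more and 138 to 147 less included, 97 to 130 introns more and 128 to 194 less retained (194 without WT ESC replicate 3), and 211 to 231 splice site events. With a difference of over 15 points there were 213 exons more and 72 less included, 54 introns more and 75 less retained and 100 splice site events. With a posterior probability over 0.99 there were 32 introns more and 67 less retained and 100 splice site events. The replicate numbers share no stated batch, and same-numbered ESC and NPC libraries deviated with r of 0.13, -0.17 and 0.07, not every library correlating best with its own number. The replicate block gave 11049 changed genes, and limma with the replicate block gave 146 introns more and 197 less retained. Of the landmark genes, leaving out 1 library gave log2 changes of -0.056 to 0.084 for Cdh2, turned downward without WT NPC replicate 1, and of -1.38 to 0.31 for Dcx, turned upward without WT ESC replicate 3, neither called in any fit. The interaction of Hes5 passed the threshold only with the replicate block. Under limma without the block, or a posterior probability over 0.99, calls were lost for events of Hook3, Klc1, Mtss1l, Rif1 and Taf1a, and for Kif3a under the latter, while limma with the replicate block kept all 6. The cause of these changes was not tested, and depth limits events in genes with few junction reads.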
